A study of Mus musculus with 36 samples.

Results

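The genes described here were 39 members of the integrated stress response and of amino acid supply, taken by symbol. Each symbol matched 1 of the 19879 genes in the deposited tables, and all 39 are protein coding. They comprised 8 transcription factors, 10 signalling proteins, brakes and effectors of the stress response, 7 enzymes of serine synthesis and one-carbon metabolism, 6 other amino acid enzymes, 7 amino acid carriers and the tRNA exporter Xpot. Their transcripts were measured by poly(A) RNA-seq in BV-2 cells, an immortalized mouse microglial line of wild-type genotype, in 36 libraries forming 12 groups of 3. Of the 6 treatments, 4 contained lipopolysaccharide (LPS, a bacterial outer membrane component that activates microglia) at 600 ng/mL, either by itself or with 30 µM dimethyl fumarate (DMF), 30 µM monomethyl fumarate (MMF) or 6 µM cannabidiol (CBD). The other treatments were the vehicles dimethyl sulfoxide (DMSO) and ethanol (EtOH) without LPS. Cells were collected after 4 h or 24 h. DMSO carried DMF and MMF and EtOH carried CBD, each at a final 0.2%, and serum was lowered to 0.1% just before treatment in medium that held 2 mM glutamine. Which vehicle accompanied LPS alone is not given in the sources used here. DMF is a fumarate ester used against multiple sclerosis, and MMF is what remains when an esterase removes a methyl ester from it. Groups that received LPS carried the replicate numbers 1 to 3 and vehicle groups 4 to 6. The experiment was repeated 3 times, but nothing states that the libraries came from separately thawed or split cultures. The p-values set group differences against the spread between these samples, which may be technical.

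Phosphorylation of the translation factor eIF2 lowers general protein synthesis while favouring translation of Atf4, whose product then switches on genes for amino acid synthesis, amino acid uptake and tRNA charging. The kinases that phosphorylate eIF2 respond to unfolded protein in the endoplasmic reticulum, amino acid shortage, heme shortage and double-stranded RNA. Prolonged signalling adds Ddit3, known as CHOP, and the feedback factor Ppp1r15a, known as GADD34, which recruits a phosphatase to eIF2. Because ATF4 is controlled mainly at translation, its transcript level is only a partial readout of its activity.

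ATF4 and its partners are known to bind the C/EBP-ATF response element, and the stretches below show where its letters TGATGNAA, or TTNCATCA when read on the opposite strand, stood in promoters of members that changed in these cells. The 250 bases before the start of each gene's canonical transcript (GRCm39, GENCODE) were searched on both strands. Gene coordinates given with the results are those of the deposited tables, and a canonical transcript can start inside or outside that span, as those of Atf3 and Ddit3 do. The motif stood in 7 of the 39 members, 17.9%, and in 738 of 21770 promoters of the same length, 3.39%. These 7 were Atf3, Chac1, Ddit3, Got1, Gpt2, Pycr1 and Vldlr. The cyclic AMP response element TGACGTCA stood in Ppp1r15a alone among members (2.56%, against 1.69% of promoters). The antioxidant response element TGACNNNGC or GCNNNGTCA stood in Phgdh and Slc38a2 (5.13%, against 9.69% of promoters). A match describes letters and is no evidence that a factor binds. Capitals mark the motif in 30-base stretches written 5′ to 3′ on the strand of the gene, with the distance counted from the first base of the motif to the transcript start.
Atf3, chr1:190915622-190915651, minus strand, motif 103 bases before the start: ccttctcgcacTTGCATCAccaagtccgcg
Ddit3, chr10:127126350-127126379, plus strand, motif 199 bases before the start: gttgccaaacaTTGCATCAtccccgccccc
Chac1, chr2:119181519-119181548, plus strand, motif 159 bases before the start: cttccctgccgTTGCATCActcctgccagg
Pycr1, chr11:120534659-120534688, minus strand, motif 79 bases before the start: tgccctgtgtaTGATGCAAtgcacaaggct
Gpt2, chr8:86218828-86218857, plus strand, motif 149 bases before the start: tatggctgggaTGATGAAActcaaggcgaa
Got1, chr19:43513128-43513157, minus strand, motif 77 bases before the start: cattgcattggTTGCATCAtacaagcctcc

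Library depth was 14110424 to 26676607 reads assigned to genes, and was spread more widely at 24 h than at 4 h. Levels below are reads divided by a size factor estimated over all 36 libraries, called normalized counts, because the 30 deposited tables were each normalized separately. The line carried Csf1r (4625 to 15408 normalized counts across libraries), Ptprc and Cd68 at high levels, whereas the microglial genes Tmem119 (19.1 to 223), P2ry12 (15.8 to 102) and Cx3cr1 (9.36 to 370.1) were low and Sall1 was not listed. Of the neuron, astrocyte and oligodendrocyte markers, Snap25, Syt1 and Aqp4 were not listed and Rbfox3, Mog and Olig2 stayed at or below 1.2, while Mbp (658 to 1508) and Map2 (65.3 to 339) were present. In such bulk samples fewer cells and less RNA per cell cannot be told apart.

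Of the 39 members, 37 passed the filter of 10 normalized counts in at least 3 of the 6 libraries compared. Vldlr, a lipoprotein receptor, and Cth, the enzyme that releases cysteine from cystathionine, stayed at group means of at most 3.28 and 2.51 normalized counts and were not tested. Per kilobase of canonical transcript, the highest medians over the 12 groups were those of Atf4 (4229 normalized counts per kilobase), the serine synthesis enzymes Psat1 (3869) and Phgdh (3587) and the mitochondrial serine hydroxymethyltransferase Shmt2 (3172). The ratio of the highest to the lowest group mean was 1.3 for Psat1, 1.34 for Phgdh, 1.48 for Shmt2 and 2.42 for Atf4, against 17.1 for Ddit3, 15.4 for Gadd45a, 12.5 for Atf3 and 11.1 for Trib3. At 4 h, LPS with DMF held the highest mean of 29 of the 39 members. At 24 h, the highest mean lay in LPS with CBD for 18 members and in LPS with DMF for 15.

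**Figure D1:**
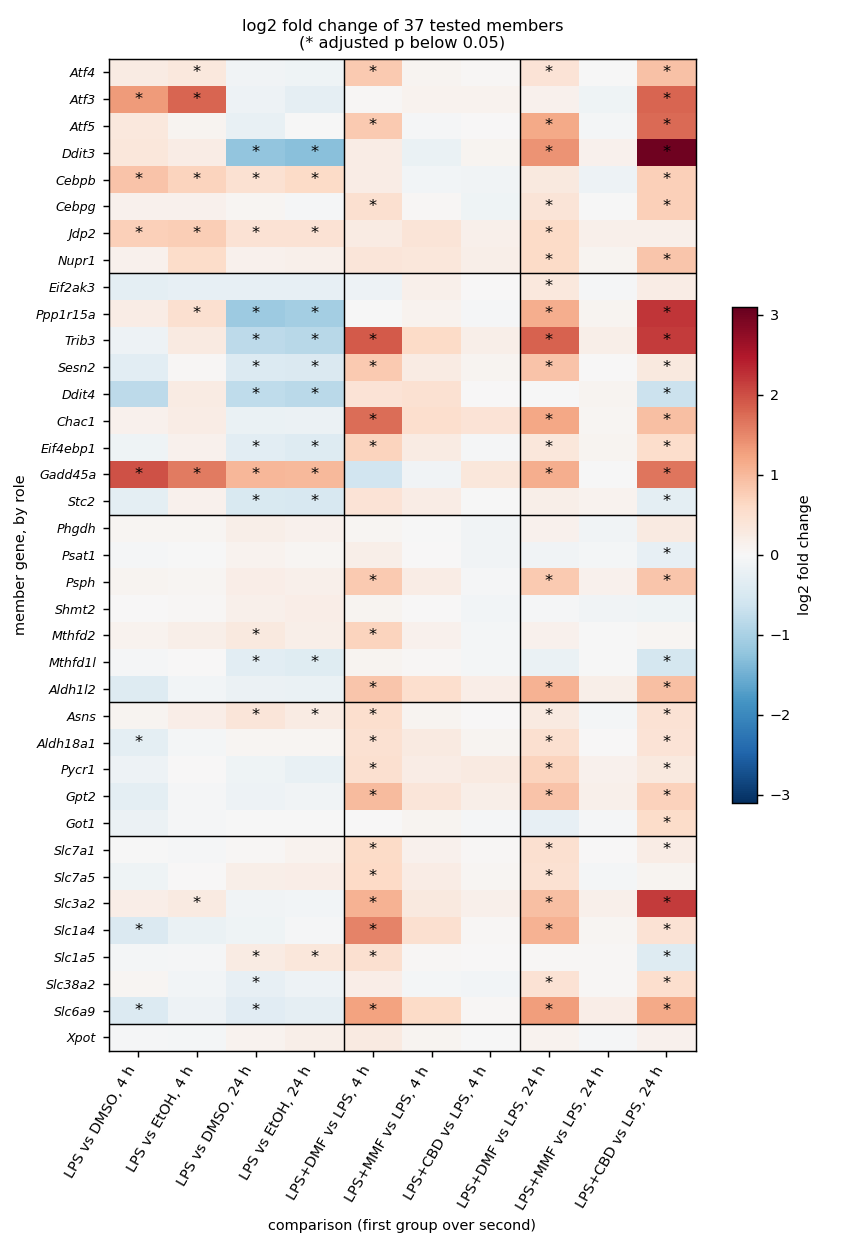
Heat map of log2 fold changes for the 37 tested members, grouped by role on the vertical axis, in 10 comparisons on the horizontal axis, with a star where the adjusted p was under 0.05. The columns of MMF at both times and of CBD at 4 h hold no star, whereas those of DMF at 4 h and 24 h and of CBD at 24 h hold 20, 25 and 30.

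The vehicles were compared first, since LPS was set against each of them. Between DMSO and EtOH at 4 h, limma called 0 of 37 members (0% of all tested genes), although 13 had an unadjusted p under 0.05. On recovered reads edgeR called 0 and DESeq2 called 1. Same-numbered libraries deviated together here, and with the replicate number as a block 15 members were called, 13 higher and 2 lower in DMSO, against 7.65% of all genes. The largest of these was Ddit4, known as REDD1, a brake on mTOR signalling. Its normalized counts were 1932, 4535 and 3310.2 in DMSO and 1238, 2163 and 1233 in EtOH. The vehicle groups overlapped, but DMSO was the higher in each of the 3 same-numbered pairs, and the blocked log2 fold change was 1.05 (adjusted p = 0.000103). Blocked values were 0.48 (adjusted p = 0.00166) for Atf3 and 0.44 (adjusted p = 0.00498) for Trib3, both higher in DMSO. At 24 h limma called 0 members (0.00854% of all genes), none had an unadjusted p under 0.05, and edgeR, DESeq2 and the block also called 0.

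LPS at 4 h raised Atf3, Cebpb, Jdp2 and Gadd45a against both vehicles, and few enzymes or carriers were called. Against DMSO, 7 of 37 members were called, 4 higher and 3 lower. That was 18.9%, near the 14.1% of all tested genes called by limma at an adjusted p under 0.05. Against EtOH there were 7, all higher, 18.9% beside 10.2% of all genes. The members' medians were -0.01 and 0.06 on the log2 scale, and those of all genes 0.00 and 0.00. Fold changes are on the log2(normalized count + 1) scale, which understates the change of low genes. The comparisons share the LPS libraries, so their values are given side by side. Gadd45a, a growth arrest gene induced by DNA damage, held 32.1, 59.1 and 51.98 normalized counts in DMSO, 51.5, 76.9 and 54.7 in EtOH and 142, 259 and 171 in LPS. Every LPS library lay above every vehicle library. Its log2 fold change was 1.97 ± 0.29 (SE, limma, adjusted p = 0.00325) against DMSO and 1.61 ± 0.25 (SE, limma, adjusted p = 0.00573) against EtOH. Atf3, a stress-induced repressor of the ATF family, stood at 814, 1499.6 and 1182 in DMSO, 703, 933 and 820.1 in EtOH and 2429.96, 3618 and 2608 in LPS. Again no vehicle library reached the LPS range, and the log2 fold changes were 1.32 ± 0.22 (SE, limma, adjusted p = 0.00616) and 1.80 ± 0.16 (SE, limma, adjusted p = 0.000419).

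Cebpb, a C/EBP factor of inflammation and a dimer partner of ATF4, rose by 0.88 and 0.69 on the log2 scale at 4 h, and Jdp2, a repressor of AP-1, by 0.73 and 0.76. Atf4 (chr15:80139385-80141742, GRCm39) stood at 6135, 5206 and 6286 in DMSO, 5586, 5513 and 5773 in EtOH and 6638, 7644 and 6937 in LPS. All LPS values were the higher, yet the test passed only against EtOH, with 0.33 ± 0.07 (SE, limma, adjusted p = 0.0212) against 0.26 ± 0.09 (SE, limma, adjusted p = 0.0852) for DMSO. Ppp1r15a and Slc3a2, the heavy chain shared by several amino acid exchangers, were likewise called against EtOH and not against DMSO. The members called lower against DMSO were Slc1a4, a carrier of serine, alanine and cysteine (-0.45), Slc6a9, a glycine carrier (-0.41), and Aldh18a1, the first enzyme of proline synthesis (-0.30), whose folds against EtOH were -0.19, -0.16 and -0.07 and were not called. None of the 7 serine and one-carbon enzymes was called at 4 h against either vehicle. Whichever single library was left out, 4 of the 7 calls against DMSO and 3 of the 7 against EtOH were kept. Without DMSO replicate 6 the calls against DMSO were 4, all higher, and without EtOH replicate 4 or replicate 6 those against EtOH were 4. Atf4 lost its call without EtOH replicate 4, 5 or 6 or LPS replicate 3 (adjusted p = 0.0586 to 0.0925), and Cebpb against EtOH without EtOH replicate 4 (adjusted p = 0.0534 by limma).

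At 24 h, Ddit3 and most brakes of the response were lower in LPS than in vehicle cells. Against DMSO 16 members were called, 6 higher and 10 lower (22.7% of all genes), and against EtOH 13, 5 higher and 8 lower (20.5% of all genes). The medians were -0.12 and -0.04, with 0.01 and 0.01 over all genes. Ddit3 (chr10:127126643-127132157), the pro-apoptotic factor CHOP, held 873, 872 and 774 normalized counts in DMSO, 776, 865 and 1059 in EtOH and 332, 349 and 395 in LPS. No LPS library reached the vehicle range. Its log2 fold change was -1.21 ± 0.10 (SE, limma, adjusted p = 1.06e-05) against DMSO and -1.31 ± 0.12 (SE, limma, adjusted p = 2.6e-05) against EtOH. Ppp1r15a (chr7:45172340-45175692) stood at 2027, 2294 and 2236 in DMSO, 2003, 2027 and 2258 in EtOH and 860.4, 1061 and 1086 in LPS. It too was lower in every LPS library, with log2 fold changes of -1.12 ± 0.10 (SE, limma, adjusted p = 2.07e-05) and -1.06 ± 0.10 (SE, limma, adjusted p = 2.66e-05). Of the 9 tested signalling proteins and brakes, 6 fell against each vehicle and 1, Gadd45a, rose.

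The falls also took in Trib3, a pseudokinase that restrains ATF4 (-0.81 and -0.87 against DMSO and EtOH), Ddit4 (-0.79 and -0.83), Sesn2, a leucine sensor that curbs mTOR (-0.43 and -0.44), Stc2, a secreted stress glycoprotein (-0.47 and -0.49), Eif4ebp1, a repressor of cap-dependent translation (-0.33 and -0.41), and Mthfd1l, a mitochondrial formate-producing enzyme (-0.32 and -0.37). Higher against both vehicles were Gadd45a (1.02 and 1.0), Cebpb (0.48 and 0.59), Jdp2 (0.45 and 0.44), asparagine synthetase Asns (0.38 and 0.25) and the glutamine carrier Slc1a5 (0.25 and 0.35). Called against DMSO and not against EtOH were Mthfd2 (0.30 and 0.19), Slc6a9 (-0.35 and -0.28) and Slc38a2 (-0.26 and -0.17). Atf4 itself was not called, at -0.12 ± 0.07 (SE, limma, adjusted p = 0.26) and -0.14 ± 0.07 (SE, limma, adjusted p = 0.204), and the mean of its LPS libraries lay below both vehicle means. About 64.1% of the annotated exon bases of Ddit3 are shared with Mars1 on the opposite strand. The strand setting of the counting is not given in the sources used here, so reads of the shared bases may be mixed or left uncounted. Mars1 moved by 0.26 (limma, adjusted p = 0.0377) against DMSO and 0.20 (limma, adjusted p = 0.102) against EtOH. Calls kept whichever library was left out were 10 of the 16 against DMSO and 9 of the 13 against EtOH, and those lost in at least 1 such fit were Jdp2, Mthfd1l, Slc1a5, Asns against EtOH, and Mthfd2, Slc6a9 and Slc38a2 against DMSO. Without DMSO replicate 6 or without LPS replicate 3, the count against DMSO was 10, with 3 higher and 7 lower. In the limma fit of all 36 libraries, Ddit4 lost its calls against DMSO and EtOH (adjusted p = 0.103 and 0.0911). Jdp2 did so too (adjusted p = 0.0556 and 0.0575), and Mthfd2 and Slc1a5 lost theirs against DMSO and Asns its own against EtOH.

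LPS with DMF at 4 h held a broad set of these genes at higher levels than LPS alone, led by Trib3, Chac1 and carriers. Of 37 members, 20 were higher and none lower than in LPS alone, where 11.1% of all tested genes were called and 4.55% were called higher. The members' median log2 fold change was 0.49, against 0.01 for all genes tested. Every comparison of a drug with LPS uses the same 3 LPS libraries of its time point. The vehicle of LPS alone is not given, so drug and vehicle cannot be told apart in them. DMF came in DMSO, as did MMF, with which DMF is compared directly below. The blocked fit of DMSO against EtOH at 4 h put 13 members higher and 2 lower in DMSO. Among these, Trib3 stood at 0.44 and Atf5 at -0.25. Trib3 (chr2:152179342-152185952) went from 361, 455 and 364 normalized counts in LPS to 1082, 1691 and 1759 with DMF. The lowest DMF library lay far above the highest LPS library. The log2 fold change was 1.91 ± 0.19 (SE, limma, adjusted p = 0.000404).

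The effector Atf4 stood at 6638, 7644 and 6937 in LPS and 12025, 12096 and 13133 with DMF at 4 h. Again the groups were apart, and the fold was 0.81 ± 0.09 (SE, limma, adjusted p = 0.000661). Its relative Atf5, a factor of the mitochondrial stress response, stood at 1248, 1049 and 1137 in LPS and 1833, 1868 and 2388 with DMF, also without overlap, a rise of 0.81 ± 0.12 (SE, limma, adjusted p = 0.00279). Cebpg, which dimerizes with ATF4, rose by 0.50. The other 5 factors were not called. Ddit3 held 235, 236 and 197 in LPS and 235, 256 and 293 with DMF, values that touched, with a fold of 0.22 ± 0.14 (SE, limma, adjusted p = 0.364). For Atf3 the fold was 0.03, and for the feedback factor Ppp1r15a it was -0.01.

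Among brakes and effectors at 4 h, Chac1, an enzyme that degrades glutathione, rose by 1.72 ± 0.25 (SE, limma, adjusted p = 0.00261), Sesn2 by 0.80 and Eif4ebp1 by 0.70. Gadd45a was not called, at -0.60 ± 0.26, adjusted p = 0.189 by limma. Carriers were the role with the largest share of calls, 6 of 7. Slc1a4 went from 390.1, 404 and 431 in LPS to 921, 1308 and 1405 with DMF. Slc6a9 went from 245, 205 and 231 to 473, 540.3 and 618. Slc3a2 (chr19:8684246-8700733) went from 5605, 5623 and 5317 to 11814, 11337 and 12129. In each of these carriers all DMF libraries lay above all LPS libraries. The rises were 1.54 ± 0.15 (SE, limma, adjusted p = 0.000463), 1.25 ± 0.13 (SE, limma, adjusted p = 0.000599) and 1.09 ± 0.08 (SE, limma, adjusted p = 7.56e-05). The cationic amino acid carrier Slc7a1, the large neutral amino acid carrier Slc7a5 and Slc1a5 rose by 0.59, 0.61 and 0.49, and Slc38a2, a carrier of small neutral amino acids, stood at 0.20 without a call. Slc3a2 shares 15.9% of its exon bases with the noncoding gene Snhg1, and Slc6a9 shares 23.5% with Ccdc24 and 9.07% with B4galt2. Of the 39 members, 24 share exon bases with another gene, 8 of them with a protein-coding gene. Such overlaps include Cebpb with Peds1 (20.7%), Nupr1 with a noncoding gene (21.8%) and Aldh1l2 with Nopchap1 (14.1%). Reads of these bases may not belong to the member alone.

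Of the other amino acid enzymes, 4 of 5 tested rose at 4 h. The mitochondrial alanine transaminase Gpt2 went from 734, 595 and 737 in LPS to 1149, 1349 and 1625 with DMF, without overlap, a fold of 0.99 ± 0.14 (SE, limma, adjusted p = 0.00254). Asns rose by 0.51, Aldh18a1 by 0.48 and Pycr1, the last enzyme of proline synthesis, by 0.50, while the cytosolic aspartate transaminase Got1 stood at 0.02. The serine and one-carbon enzymes split. Psph, the last enzyme of serine synthesis, rose by 0.82, the mitochondrial folate enzyme Mthfd2 by 0.68 and Aldh1l2, which burns mitochondrial formyl-folate, by 0.87, whereas Phgdh (0.06), Psat1 (0.18), Shmt2 (0.09) and Mthfd1l (0.10) were not called. With the replicate number as a block, Ddit4 at 0.42 (adjusted p = 0.0495) and Stc2 at 0.43 (adjusted p = 0.0108) were also called. Some libraries of this comparison deviated more closely with another number than with their own. Both genes were also higher in DMSO than in EtOH at 4 h with the block, at 1.05 and 0.44. The tRNA exporter Xpot, at 0.29, was not called. Whichever library was left out, 13 of the 20 calls were kept, and those lost in at least 1 such fit were Sesn2, Aldh1l2, Aldh18a1, Pycr1, Slc1a5, Slc7a1 and Slc7a5. Without DMF replicate 3 the count was 13, all higher. Pycr1 also missed the threshold with edgeR and DESeq2, at adjusted p = 0.0529 and 0.0505.

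**Figure D2:**
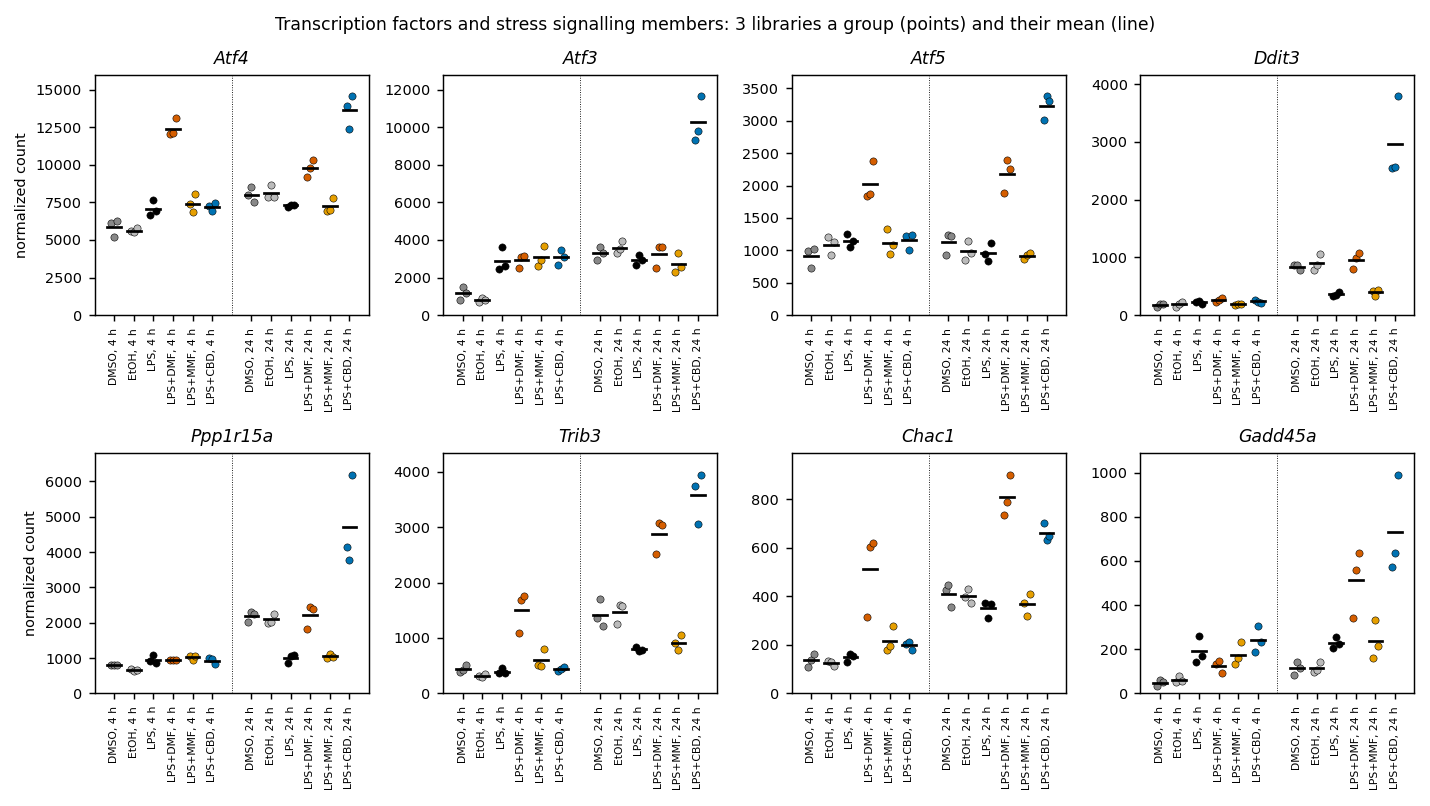
Normalized counts of 8 regulators on linear axes that start at 0, with 1 point per library and a bar at the mean of the 3 libraries, in the 6 treatments at 4 h and 24 h. Ddit3 and Ppp1r15a at 24 h have their lowest mean in LPS and their highest in LPS with CBD, whereas Trib3 and Chac1 at 4 h have theirs in LPS with DMF.

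After 24 h with DMF, Ddit3, Ppp1r15a and Gadd45a were among the members that rose, beside most of the carriers. The test called 25 of 37 members, all higher than in LPS alone (25.1% of all genes were called, 11.9% higher), and the median was 0.48 against -0.01 over all genes. Of the 20 members called at 4 h, 18 were called at 24 h, which is 18 of the 25 at the later time. Ddit3 held 332, 349 and 395 in LPS and 795, 992 and 1069.99 with DMF. Every DMF library was the higher, and the DMF range overlapped that of the vehicle cells given above. The log2 fold change was 1.40 ± 0.12 (SE, limma, adjusted p = 7.31e-05). Ppp1r15a stood at 860.4, 1061 and 1086 in LPS and 1809, 2449 and 2383 with DMF, without overlap, a fold of 1.14 ± 0.12 (SE, limma, adjusted p = 0.000323). Gadd45a stood at 207, 254 and 223 and 343, 559 and 637, likewise apart, with 1.12 ± 0.19 (SE, limma, adjusted p = 0.003).

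Trib3 had the largest DMF fold of the 37 members at 24 h as at 4 h, from 839, 768 and 791 to 2512, 3066 and 3034. All DMF libraries exceeded all LPS libraries, with 1.84 ± 0.09 (SE, limma, adjusted p = 2.46e-06). Atf4 stood at 7212, 7327 and 7359.9 in LPS and 9168, 9789 and 10335 with DMF, apart but closer than at 4 h, with 0.42 ± 0.07 (SE, limma, adjusted p = 0.00232). Atf5 rose by 1.18, the small chromatin-linked stress protein Nupr1 by 0.60, Jdp2 by 0.60 and Cebpg by 0.41. Atf3 (0.13) and Cebpb (0.29) were not called. The eIF2 kinase Eif2ak3, known as PERK, rose by 0.32 ± 0.10 (SE, limma, adjusted p = 0.0396), the only comparison of a drug with LPS in which it was called. That call was lost without LPS replicate 2 or 3 or DMF replicate 2 or 3 (adjusted p = 0.0833 to 0.146 by limma). Chac1 rose by 1.20 and Sesn2 by 0.89, and Ddit4 (-0.02) and Stc2 (0.18) were not called.

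Among supply genes at 24 h, Slc6a9 went from 336, 413 and 381 in LPS to 827, 996 and 945 with DMF. Aldh1l2 went from 1824, 1557 and 1900.3 to 3711, 3468 and 4003, and Gpt2 from 1691, 1579.9 and 1684 to 3034, 2985 and 3139. None of these groups overlapped. The rises were 1.29 ± 0.10 (SE, limma, adjusted p = 4.85e-05), 1.08 ± 0.09 (SE, limma, adjusted p = 7.5e-05) and 0.88 ± 0.07 (SE, limma, adjusted p = 4.1e-05). Slc1a4 rose by 1.07, Slc3a2 by 0.94, Slc7a1 by 0.49, Slc7a5 by 0.48 and Slc38a2 by 0.45, so that Slc1a5 at 0.03 was the only carrier without a call. Psph rose by 0.81, while Mthfd2, called at 4 h, stood at 0.14. Phgdh (0.12), Shmt2 (-0.02), Psat1 (-0.12) and Mthfd1l (-0.21) had no call. With the replicate block, Stc2 was also called higher, at 0.18 (adjusted p = 0.0262), and Mthfd1l and Got1 lower, at -0.21 (adjusted p = 0.0124) and -0.25 (adjusted p = 0.00445). Whichever library was left out, 22 of the 25 calls were kept, all but those of Eif2ak3, Eif4ebp1 and Asns. Xpot stood at 0.12 and was not called.

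CBD at 4 h left the members close to LPS alone. By limma 0 of 37 were called (0.00875% of all genes), with 2 at an unadjusted p under 0.05, and edgeR, DESeq2 and the replicate block also called 0. The folds ran from -0.13 for Cebpg to 0.43 for Chac1. Chac1 held 128, 163 and 155 in LPS and 204, 211 and 180.3 with CBD. The CBD libraries were the higher, yet the adjusted p was 0.994 by limma.

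At 24 h, CBD gave the largest fold of any member in a comparison of a drug with LPS, that of Ddit3. CBD raised 25 members and lowered 5, 30 of 37 in all, in a comparison where 48.7% of all tested genes were called. The members' median was 0.52, against 0.00 for all genes. Ddit3 held 332, 349 and 395 in LPS and 2545, 2556 and 3786 with CBD, above every vehicle library as well. Its log2 fold change was 3.02 ± 0.15 (SE, limma, adjusted p = 2.78e-06). Mars1, the gene on the opposite strand, moved by -0.13 (limma, adjusted p = 0.224).

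Of the 8 transcription factors 7 rose with CBD at 24 h. Atf3 went from 2659, 3219.6 and 2934 in LPS to 9315, 9815 and 11639 with CBD. Atf5 went from 939, 838 and 1112 to 3009.9, 3378 and 3303, and Atf4 from 7212, 7327 and 7359.9 to 13946, 12384 and 14554. In these 3 genes every CBD library lay above every other library of the 24 h groups. The folds were 1.81 ± 0.10 (SE, limma, adjusted p = 4.1e-06), 1.76 ± 0.11 (SE, limma, adjusted p = 5.09e-06) and 0.90 ± 0.08 (SE, limma, adjusted p = 4.16e-05). Nupr1 rose by 0.87, Cebpb by 0.75 and Cebpg by 0.74, and Jdp2 stood at 0.15 without a call.

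Signalling proteins and brakes moved both ways with CBD. Ppp1r15a went from 860.4, 1061 and 1086 in LPS to 4151, 3774 and 6188 with CBD. Trib3 went from 839, 768 and 791 to 3742, 3052 and 3946, and Gadd45a from 207, 254 and 223 to 574, 634 and 991. No CBD library overlapped the LPS range in any of them. The rises were 2.21 ± 0.17 (SE, limma, adjusted p = 1.65e-05), 2.16 ± 0.10 (SE, limma, adjusted p = 2.74e-06) and 1.65 ± 0.19 (SE, limma, adjusted p = 0.000118). Chac1 rose by 0.92, Eif4ebp1 by 0.54 and Sesn2 by 0.31. In contrast, Ddit4 stood at 3433, 4375 and 3425 in LPS and 2598, 3084 and 1605 with CBD. All CBD libraries were lower, at -0.66 ± 0.21 (SE, limma, adjusted p = 0.0241). That call was lost without LPS replicate 2 (adjusted p = 0.0661 by limma) and in the limma fit of all 36 libraries (adjusted p = 0.118). Stc2 was also lower, at -0.31 ± 0.11 (SE, limma, adjusted p = 0.0363). Eif2ak3 was not called, at 0.23 ± 0.10 (SE, limma, adjusted p = 0.0733). Gadd45a shares 55.8% of its exon bases with the antisense RNA gene E230016M11Rik, whose reads cannot be told apart without strand.

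Among carriers, Slc3a2 went from 5517, 5359 and 5842 in LPS to 22741, 17849 and 38838 with CBD. Replicate 3 stood well above the other CBD libraries, and the lowest CBD library still exceeded every library of the other 11 groups. The fold was 2.17 ± 0.23 (SE, limma, adjusted p = 7.67e-05), and without CBD replicate 3 it was 1.86 and still called (adjusted p = 2.18e-05 by limma). Slc6a9 rose by 1.18, Slc38a2 by 0.52, Slc1a4 by 0.45 and Slc7a1 by 0.24. Slc7a5, a light chain that pairs with Slc3a2, stood at 0.08 and was not called. Slc1a5 held 2846, 2558 and 2701 in LPS and 2333, 2228 and 1669 with CBD, lower in every library, at -0.39 ± 0.12 (SE, limma, adjusted p = 0.0244). This call was lost without LPS replicate 1 or 3 or CBD replicate 3 (adjusted p = 0.0513 to 0.0772 by limma).

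All 5 tested enzymes of the other amino acids rose with CBD by limma, from 0.30 for Pycr1 to 0.71 for Gpt2. Pycr1 missed the threshold with DESeq2 (adjusted p = 0.0526), without a filter (0.0588) and in the limma fit of all 36 libraries (0.0813). Got1 rose by 0.56 ± 0.10 (SE, limma, adjusted p = 0.00134), whereas its DMF value at 24 h was -0.25 ± 0.09 (SE, limma, adjusted p = 0.0666). The serine and one-carbon enzymes split evenly, with Aldh1l2 (0.93) and Psph (0.86) higher and Mthfd1l and Psat1 lower. Mthfd1l held 2422, 1888 and 2224 in LPS and 1636, 1536 and 1261 with CBD, without overlap. It fell by 0.56 ± 0.12 (SE, limma, adjusted p = 0.00453), and Psat1, which carries a later step of serine synthesis, was lower at -0.27 ± 0.09 (SE, limma, adjusted p = 0.0294). Phgdh, the entry enzyme of that pathway, was called only with the replicate block, at 0.27 (adjusted p = 0.0172), where some libraries deviated more closely with another number. Shmt2 (-0.13), Mthfd2 (0.07) and Xpot (0.12) were not called. Whichever library was left out, 23 of the 30 calls were kept, and those lost in at least 1 such fit were Ddit4, Stc2, Psat1, Slc1a5, Slc7a1, Sesn2 and Pycr1.

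**Figure D3:**
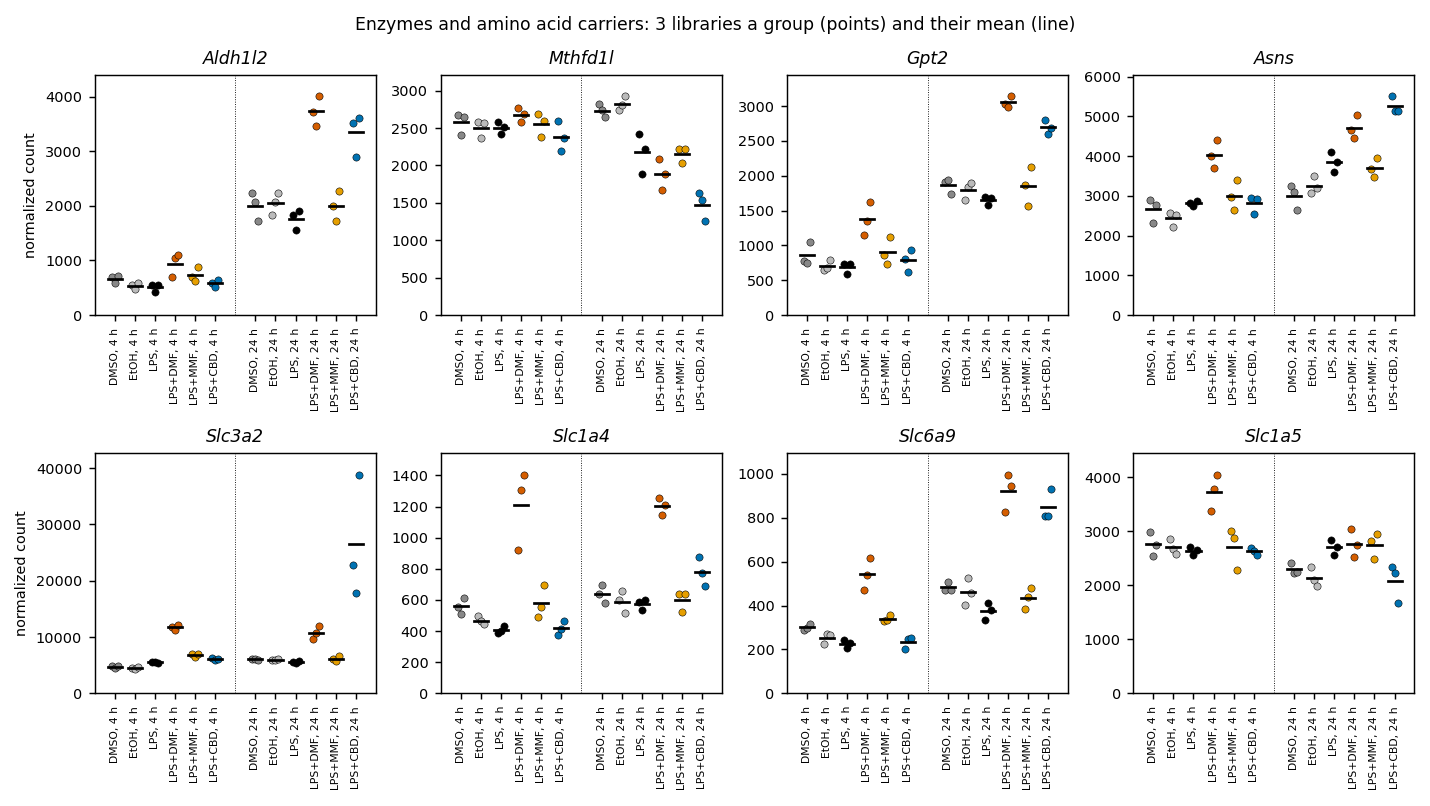
Normalized counts of 8 supply genes on linear axes that start at 0, with 1 point per library and a bar at the mean of the 3 libraries, in the 6 treatments at 4 h and 24 h. Slc3a2 in LPS with CBD at 24 h lies between 17849 and 38838, above every other group, while the means of Mthfd1l and Slc1a5 there are the lowest of the 24 h groups.

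MMF was given at the dose of DMF. At 4 h limma called 0 of 37 members (0.122% of all genes), 10 had an unadjusted p under 0.05, and 31 of 37 folds were positive with a median of 0.14. edgeR called 0, DESeq2 and the limma fit of all 36 libraries called 1 each, and the replicate block called 3, although the numbers did not pair these libraries. The largest MMF fold was that of Slc6a9, which held 245, 205 and 231 in LPS and 331, 333 and 359 with MMF. Those libraries did not overlap, and the fold was 0.59 ± 0.11 (SE, limma, adjusted p = 0.16). At 24 h limma called 0 (0% of all genes), 0 had an unadjusted p under 0.05, and edgeR and DESeq2 called 0. The replicate block, whose numbers did pair these libraries, also called 0 members, beside 1.78% of all genes. The folds at 24 h ran from -0.16 for Cebpb to 0.20 for Slc6a9, with a median of 0.02. The medians of all genes were 0.00 at 4 h and 0.00 at 24 h. The 95% interval of the MMF fold at 24 h was -0.06 to 0.43 for Trib3 and -0.17 to 0.14 for Atf4.

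Compared directly at 30 µM, a single pair of compounds at 2 times, DMF exceeded MMF in 15 members at 4 h (8.34% of all genes were called) and in 25 at 24 h (21.5% of all genes), and was below it in 0 at both times. The medians were 0.35 and 0.46. DMSO carried both compounds, so this comparison shares its vehicle. Its 15 calls at 4 h were all among the 20 of DMF against LPS, and its 25 at 24 h were the same 25 members. Largest at 4 h were Trib3, which held 511, 490.5 and 803 with MMF and 1082, 1691 and 1759 with DMF, and Chac1, with 179, 196 and 276 and 315, 603 and 621. Neither gene overlapped between the drugs. The differences were 1.32 ± 0.22 (SE, limma, adjusted p = 0.00614) and 1.19 ± 0.25 (SE, limma, adjusted p = 0.0184), and that of Chac1 was lost without MMF replicate 1 or 2 or DMF replicate 3 (adjusted p = 0.0568 to 0.0877 by limma). Slc1a4 (1.05), Atf5 (0.86), Slc3a2 (0.79) and Atf4 (0.74) were also higher with DMF at 4 h. At 24 h the largest differences were that of Trib3, 1.65 ± 0.12 (SE, limma, adjusted p = 5.84e-05), that of Ddit3, 1.26 ± 0.14 (SE, limma, adjusted p = 0.000518), and that of Atf5, 1.24 ± 0.09 (SE, limma, adjusted p = 8.11e-05).

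Where DMF and MMF were not called apart, 95% intervals, which are not adjusted for the number of genes, bound the difference. For Ppp1r15a at 4 h it was -0.11 ± 0.09 (SE), with a 95% interval of -0.31 to 0.09, and for Atf3 -0.07 ± 0.13, with -0.37 to 0.22. For Slc1a5 at 24 h it was 0.01 ± 0.09, with -0.19 to 0.21, and for Psat1 -0.07 ± 0.07, with -0.22 to 0.09. The interval of Gadd45a at 4 h was wide, -1.02 to 0.05. At 24 h the replicate block called 32 members (39.8% of all genes), 30 higher with DMF and 2 lower, although some libraries deviated more closely with another number. It added Atf3, Cebpb, Phgdh, Mthfd2 and Xpot as higher, at 0.25 (adjusted p = 0.00736) for Atf3, and as lower Got1 at -0.21 (adjusted p = 0.00406) and Mthfd1l at -0.20 (adjusted p = 0.00931). Whichever library was left out, 5 of the 15 calls at 4 h and 19 of the 25 at 24 h were kept. The 4 h count depended on single libraries, falling to 5 when DMF replicate 3 was left out, 6 for MMF replicate 2 and 7 for MMF replicate 1.

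**Figure D4:**
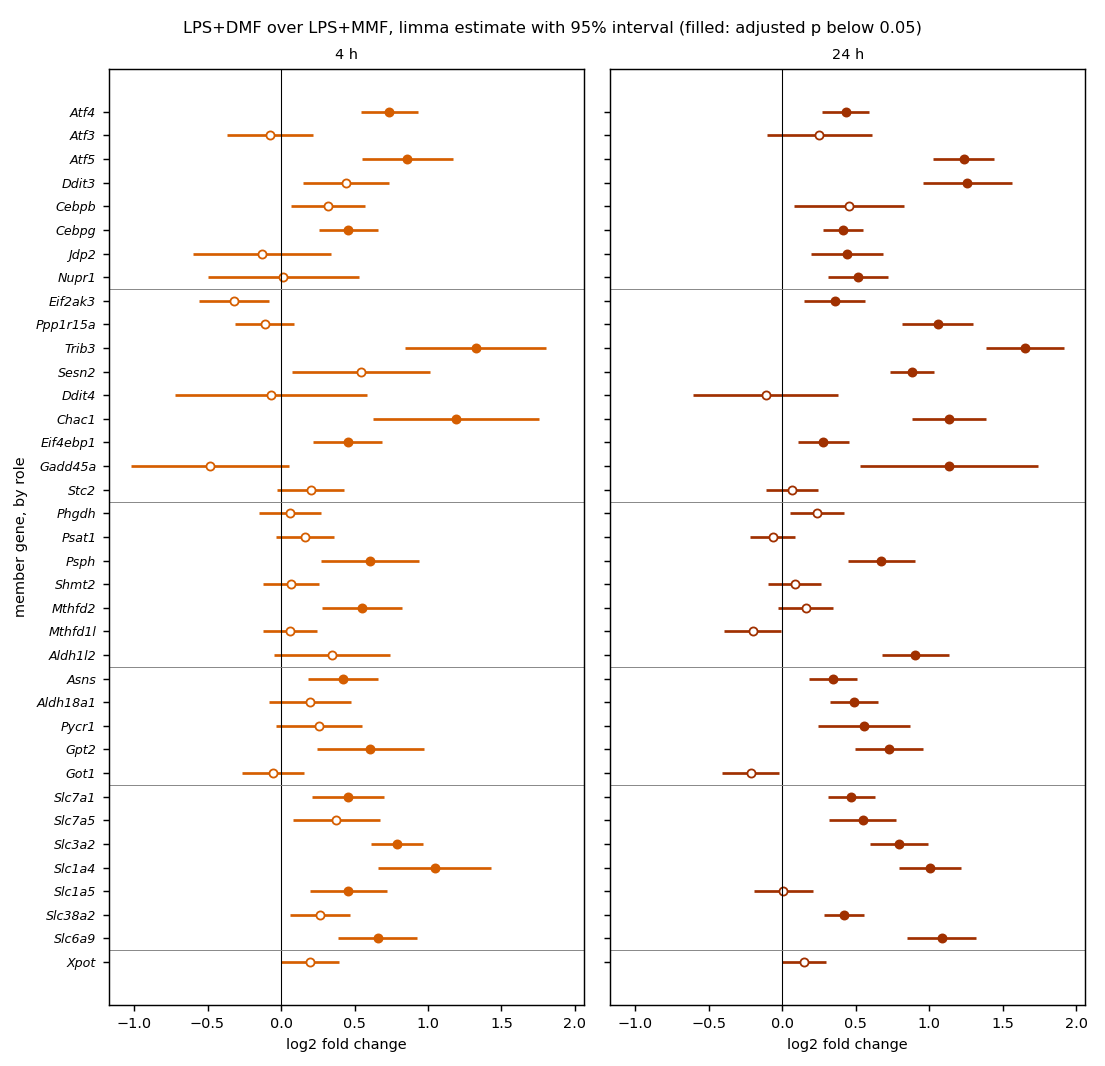
Log2 difference between LPS with DMF and LPS with MMF for each tested member at 4 h and 24 h, with 95% intervals as lines and filled points where the adjusted p was under 0.05. All filled points, 15 at 4 h and 25 at 24 h, lie to the right of 0.

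CBD and DMF were given at different doses and in different vehicles, so their direct comparison sets groups side by side and not molecules. At 4 h 24 members differed, 23 lower with CBD and 1 higher (15.5% of all genes). The higher one was Gadd45a, at 187, 304 and 233 with CBD and 135, 149 and 90.4 with DMF, apart, with 0.96 ± 0.23 (SE, limma, adjusted p = 0.023). Without DMF replicate 3 the count was 14 and without CBD replicate 3 it was 15, all lower, and Gadd45a lost its call in both and without CBD replicate 2. The median at 4 h was -0.45 and that of all genes -0.01. At 24 h the split was 10 higher and 11 lower with CBD (38.5% of all genes), with medians of -0.08 over the members and 0.00 over all genes. Higher with CBD were 7 of the 8 transcription factors, among them Atf3 (1.67), Ddit3 (1.62) and Atf4 (0.48), and also Slc3a2 (1.22), Ppp1r15a (1.06) and Got1 (0.81). Lower with CBD were 4 carriers, among them Slc1a4 (-0.63), Slc1a5 (-0.43) and Slc7a5 (-0.41), 3 brakes or effectors, Sesn2 (-0.59), Stc2 (-0.49) and Chac1 (-0.29), and 3 enzymes, Mthfd1l (-0.36), Pycr1 (-0.40) and Gpt2 (-0.18). Jdp2 was the factor lower with CBD, at -0.46. The replicate block added Trib3 at 0.31 (adjusted p = 0.0185) and Gadd45a at 0.52 (adjusted p = 0.00232) as higher with CBD, and Ddit4 at -0.65 (adjusted p = 0.00572) and Aldh1l2 at -0.16 (adjusted p = 0.0497) as lower. Without DMF replicate 3 the 24 h count was 13, with 8 higher and 5 lower, and 13 of the 21 calls were kept whichever library was left out. Cebpb lost its call in 5 of these 6 fits, and Nupr1 in 4 of 6 and in the limma fit of all 36 libraries (adjusted p = 0.37).

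Atf4 itself, whose libraries are given above for LPS, DMF and CBD where it was called, completed its range as follows. With MMF it held 7385, 6868 and 8029 normalized counts at 4 h and 6902, 7014 and 7781 at 24 h, and with CBD at 4 h 7255, 6912 and 7443. At 24 h it held 7971, 8527 and 7546 in DMSO and 7857, 8689 and 7828 in EtOH. The order of its group means ran at 4 h from EtOH, the lowest, through DMSO, LPS, CBD and MMF to DMF, and at 24 h from MMF and LPS through DMSO and EtOH to DMF and CBD. Neighbours in that order that were called apart were MMF and DMF at 4 h (0.74 ± 0.09 (SE, limma, adjusted p = 0.00141)) and DMF and CBD at 24 h (0.48 ± 0.08 (SE, limma, adjusted p = 0.00209)). EtOH and DMSO, DMSO and LPS, LPS and CBD at 4 h, and MMF and LPS, LPS and DMSO, DMSO and EtOH at 24 h were not called apart, while CBD and MMF at 4 h and EtOH and DMF at 24 h were not compared directly.

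These genes also moved with time in cells that received vehicle alone. From 4 h to 24 h, 25 members were called in DMSO (21 higher, 4 lower), 67.6% of those tested against 51.6% of all genes. In EtOH there were 27 (23 higher, 4 lower), 73% against 58.6%. In LPS alone 18 were called (16 higher, 2 lower), 48.6% against 48.9%, and with MMF 17 (13 and 4), 45.9% against 49.5%. With DMF 23 were called (15 and 8), 62.2% against 58.8%, and with CBD 29 (26 and 3), 78.4% against 63.2%. The share of members called in LPS alone, with MMF and with DMF was thus near that of all genes. Ddit3 rose with time in all 6 treatments, by 2.26 in DMSO, 2.22 in EtOH, 0.68 in LPS, 1.03 when MMF was added, 1.85 when DMF was added and 3.61 when CBD was added. Ppp1r15a rose in DMSO (1.42) and EtOH (1.62), and its values in LPS (0.06) and with MMF (0.04) were not called. Aldh1l2, Gpt2, Pycr1 and Trib3 rose with time in every treatment, Aldh1l2 by 1.44 to 2.51. Shmt2 fell in every treatment, by 0.30 in LPS to 0.47 in EtOH on the log2 scale.

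Whether a drug's fold itself differed between the times was tested with an interaction term over 12 libraries on recovered reads. For DMF 7 members differed, 18.9% of those tested, which is near the 16.3% of all genes. The larger fold lay at 24 h for Gadd45a, by 1.72 ± 0.35 (SE, limma, adjusted p = 0.00461), for Ddit3, by 1.17 ± 0.19 (SE, limma, adjusted p = 0.000822), for Ppp1r15a, by 1.14 ± 0.17 (SE, limma, adjusted p = 0.000629), and for Eif2ak3 (0.48). Atf4 (-0.40), Mthfd2 (-0.54) and Slc1a5 (-0.46) had the larger fold at 4 h. Trib3 was not called, at -0.08 ± 0.22 (SE), with a 95% interval of -0.55 to 0.39. For CBD 22 members differed (32% of all genes), 21 with the higher value at 24 h and Mthfd1l with the lower, to which the replicate block added Nupr1 and Phgdh with the higher and Slc1a5 with the lower. For MMF limma called 0 (0% of all genes), 2 had an unadjusted p under 0.05, and edgeR and DESeq2 called 0. Without DMF 24 h replicate 2 the DMF count was 4, with 3 higher and 1 lower.

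**Figure D5:**
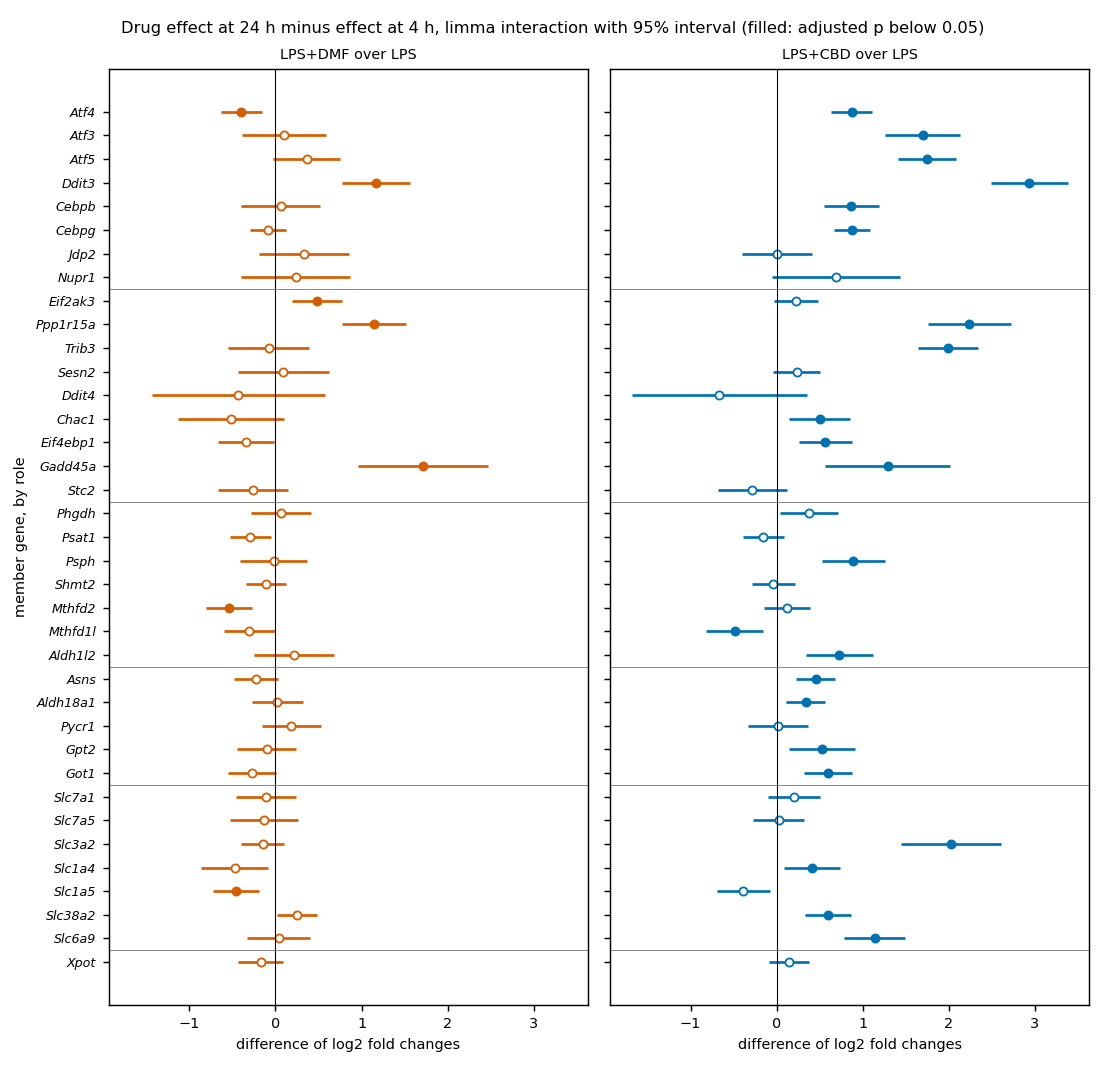
Difference between the log2 fold change at 24 h and that at 4 h for each tested member, for DMF and for CBD against LPS, with 95% intervals as lines and filled points where the adjusted p was under 0.05. DMF has 4 filled points to the right of 0 and 3 to the left, and CBD has 21 to the right and 1 to the left, with Ddit3 farthest right for CBD at 2.94.

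Neighbouring genes of the same pathways were taken as whole lists and counted beside the members. Of 20 cytosolic aminoacyl-tRNA synthetases, which charge tRNAs, 4 rose and none fell with DMF at 4 h (11.1% of all genes called), 11 rose and 2 fell with DMF at 24 h (25.1%), and 10 rose and 5 fell with CBD at 24 h (48.7%), where the list's median log2 fold change was 0.20. Wars1, for tryptophan, rose by 1.36 and Aars1, for alanine, by 0.93 with CBD, whereas Vars1, for valine, fell by 0.70 on the log2 scale. Of the 13 genes of the eIF2 pathway, 2 rose and 5 fell with CBD at 24 h, where 23.9% of all genes were called higher and 24.8% lower, with a median of -0.15. Eif2ak2, the eIF2 kinase that senses double-stranded RNA and an interferon-induced gene, was higher in LPS at 4 h by 0.91 and 0.84 against DMSO and EtOH and lower with DMF than with LPS alone at 4 h, at -1.27 ± 0.12 (SE, limma, adjusted p = 0.000307). In LPS at 4 h, 3 of the 13 eIF2 pathway genes rose and 1 fell against DMSO, beside 7.7% and 6.38% of all genes. Against EtOH 2 rose, beside 5.69% of all genes.

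Of 19 further amino acid carriers, 13 were tested with DMF at 4 h and 1 rose, beside 4.55% of all genes, the cystine carrier Slc7a11, which is also a target of Nrf2. It rose by 2.75 ± 0.11 (SE, limma, adjusted p = 4.2e-06) with DMF at 4 h and by 1.54 at 24 h, and was the 1 gene of these lists called with MMF, by 1.21 ± 0.10 (SE, limma, adjusted p = 0.00428) at 4 h. With CBD at 24 h 8 of 12 tested rose and 2 fell (23.9% and 24.8% of all genes), with a median of 0.50, led by the glutamine carrier Slc38a7 (1.68) and the cationic amino acid carrier Slc7a3 (1.47), with Slc43a2, a carrier of large neutral amino acids, lower at -0.63. Of the other one-carbon genes 17 were tested, of which 1 rose with DMF at 4 h, close to the 4.55% of all genes that rose. With DMF at 24 h 0 rose and 6 fell, beside 11.9% and 13.2% of all genes, among them the cytosolic folate enzyme Mthfd1 (-0.48). With CBD at 24 h 3 rose and 8 fell, beside 23.9% and 24.8% of all genes (median -0.31), with Sfxn1, the mitochondrial serine importer, at -0.91 and Mthfd1 at -0.88.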

How the data were processed

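Poly(A) RNA of 36 libraries was sequenced by the submitters. Their processing notes name FastQC 0.12.1, cutadapt 4.4, Trimmomatic 0.39, HISAT2 2.2.1, HTSeq 2.0.3, R 4.3.1 and DESeq2 1.40.2, with the GRCm39 build. Strand settings are not given in the sources used here. Each of the 30 deposited tables holds, for a pair of groups, normalized counts (a signal, whole reads divided by the authors' DESeq2 size factors, normalized within that table) beside the authors' own fold changes and p-values, which were not used. Whole reads were recovered from the steps of 155 of 180 columns, with 100% of 2695078 values whole within 0.01 read, and the other 25 matched reads recovered elsewhere. Same-group libraries differed by more than counting noise.

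Genes with at least 10 normalized counts in 3 or more libraries of a table were tested with limma 3.58.1 (R 4.3.3) on log2(value + 1), 6 libraries per fit, with Benjamini-Hochberg adjustment over all genes tested, and called under 0.05. Interactions and levels used recovered reads scaled jointly over all libraries. edgeR 4.0.16 and DESeq2 1.42.0 on recovered reads, a pseudocount of 4, no filter, all libraries in 1 fit, the replicate block and leaving out each library were alternatives. Shared replicate numbers were taken to pair libraries where every same-numbered correlation of deviations from group means passed 0.1. Examples are DMF against LPS at 4 h (0.17 to 0.46), MMF against LPS at 24 h (0.33 to 0.68) and DMSO against EtOH at 4 h (0.29 to 0.73). The rule failed in MMF against LPS at 4 h, in DMF against MMF at 4 h, and over time in DMSO, EtOH, DMF and CBD. Some libraries correlated better with another number in DMF against LPS at 4 h and CBD against LPS at 24 h. The same held in DMF against MMF at 24 h, CBD against DMF at 4 h and MMF over time. Those comparisons passed 0.1 all the same, so their blocked calls rest on a weaker pairing. The pairing is a hint from the data, not stated by the labels. Library values were given for Atf4 and for called members with the largest fold of their role in a comparison, and for members chosen after their values were seen. Members and lists were chosen with earlier results of these data known. The fits were tested on simulated data.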

Additional observations from a re-analysis of the deposited data

Results flagged for a closer look

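Whether a drug's log2 fold change against LPS differed between 4 h and 24 h was read from the interaction term of limma on recovered reads. With DMF it differed for 7 of 37 members, 18.9%, near the 16.3% of all genes. With CBD it differed for 22 of 37, 59.5% against 32% of all genes. Values are the fold at 24 h minus that at 4 h. With DMF the difference was positive for Gadd45a (1.72), Ddit3 (1.17), Ppp1r15a (1.14) and Eif2ak3 (0.48), and negative for Mthfd2 (-0.54), Slc1a5 (-0.46) and Atf4 (-0.40). Of these 7 calls, 4 were kept whichever library was left out.

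With CBD, the positive differences among transcription factors were Ddit3 (2.94), Atf5 (1.74), Atf3 (1.70), Cebpg (0.87), Atf4 (0.87) and Cebpb (0.86). Among signalling proteins and brakes they were Ppp1r15a (2.24), Trib3 (1.99), Gadd45a (1.29), Eif4ebp1 (0.57) and Chac1 (0.50). Among enzymes they were Psph (0.89), Aldh1l2 (0.73), Got1 (0.60), Gpt2 (0.53), Asns (0.45) and Aldh18a1 (0.34), and among carriers Slc3a2 (2.02), Slc6a9 (1.14), Slc38a2 (0.60) and Slc1a4 (0.41). Of the 22 called, only Mthfd1l had a negative difference, -0.49. The replicate block added Nupr1 and Phgdh as positive and Slc1a5 as negative, the last at -0.39 (adjusted p = 0.0247). Of the 22 calls, 17 were kept whichever library was left out. CBD libraries at 4 h and 24 h were compared with different LPS libraries, and the vehicle of LPS alone is not given in the sources used here.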

How the results depend on the processing

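Counts of called members kept within 1.5 times of the reported count under a pseudocount of 4, no filter on low counts, edgeR, DESeq2, all 36 libraries in 1 fit and the replicate block, apart from comparisons reported at 0. For MMF at 4 h DESeq2 and the fit of all 36 libraries called 1 each, and for DMSO against EtOH at 4 h DESeq2 called 1. With the replicate number as a block, MMF at 4 h gave 3 (Aldh1l2, Slc1a4 and Slc6a9, all higher), although there 1 same-numbered pair did not deviate together and the number is only a shared label, and DMSO against EtOH at 4 h gave 15, where the numbers did pair the libraries. The block ended no call, and the calls it added in the other comparisons came to at most 7. For DMF against MMF at 4 h, where the numbers did not pair the libraries, the block gave 18. No paired analysis was possible for LPS against either vehicle because their replicate numbers, 1 to 3 and 4 to 6, do not meet.

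With each library left out in turn, calls numbered 4 to 8 (LPS against DMSO) and 4 to 7 (against EtOH) at 4 h and 10 to 19 and 10 to 15 at 24 h, 13 to 20 and 22 to 27 for DMF at 4 h and 24 h, 0 for MMF at both times and for CBD at 4 h, 26 to 29 for CBD at 24 h, 5 to 16 and 19 to 28 for DMF against MMF, 14 to 25 and 13 to 20 for CBD against DMF, and 0 for the vehicles at both times. Over time they numbered 24 to 28 in DMSO, 25 to 29 in EtOH, 15 to 22 in LPS, 20 to 25 with DMF, 12 to 17 with MMF and 28 to 30 with CBD, and for the interactions 4 to 10 (DMF), 0 (MMF) and 18 to 23 (CBD). In none of these fits did a called member change direction. Single calls lost under another setting numbered 18 in the fit of all 36 libraries, 13 without a filter, 5 with DESeq2 and 3 with edgeR, among them Ddit4, Jdp2 and Slc1a5 for LPS against DMSO at 24 h in the fit of all 36 libraries, where 3 members were higher and 10 lower. The causes were not tested. At this depth Vldlr and Cth lay below the filter in every comparison.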
